A study of Mus musculus with 16 samples.

Results

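Gene desert regions are the 1964 accessible regions, of 80590 in the whole series, whose midpoint lay over 100 kb from every annotated transcript start. They made up 2.44% of all regions. To find them, the 50000 distinct intervals with the highest −log10 p were kept from the peak list of each of 16 libraries, windows reaching 150 bp to both sides of the summits were merged over the libraries, and a merged region was retained when at least 2 libraries contributed a window. A region counted as open where a kept interval of the library overlapped it by at least 1 bp, so that open and closed are ranks within a library and not absolute levels of accessibility. The members were chosen by position alone, in any state. The members closest to the limit lay 100020, 100032 and 100036 bp from a start and were open in 3, 4 and 2 libraries, and the regions just outside it lay 99999, 99996 and 99993 bp away and were open in 14, 9 and 12 libraries.

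Accessibility was measured with omni-ATAC-seq, in which a transposase cuts and tags open DNA, in cultures of mouse embryonic stem cells on the way to anterior neural progenitor cells (antNPCs). The labels give all lines as mESC B6129S6F1 Tet1<tm1Koh>. The 8 groups of 2 libraries were wild type (WT; lines WT70 and WT72), Tet1 MUT (CM59 and CM69, made by CRISPR HDR) and Tet1 KO (KO1 and KO15) cells, each sampled on day 2 and day 3, and 2 treated groups of day 3. These were WT cells given 3 µM CHIR, an activator of Wnt signalling (WT7 and WT34), and KO cells given 5 µM XAV, an inhibitor of it (KO1 and KO15). TET1 oxidises methylated cytosine; the MUT protein lacks that activity and the KO cells lack the protein. Both compounds were given for the last day, from day 2. Both MUT lines were clones of WT7, the CHIR libraries came from other lines than the untreated WT libraries, and no group with the vehicle alone was analysed here, so that line and CHIR cannot be told apart. The peak lists of 3 libraries of day 2, replicate 2 of WT, MUT and KO, carry the word merged in their names, with no account of what was merged. The lists held 161449 to 276451 peaks per library, the −log10 p of the last kept interval ran from 6.84 in KO day 3 replicate 2 to 21.8 in KO day 2 replicate 1, and read depth is unknown.

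Gene deserts are long stretches of the genome without promoters. Many flank genes of developmental regulators and hold enhancers that act on a promoter far away by looping, and others lie in the introns of very long genes, many of which serve cell adhesion and synapses. Accessible DNA far from any start is for the most part enhancers or sites of the architectural protein CTCF. In bulk libraries, a site that opens in all cells and a site that opens in a larger share of cells cannot be told apart.

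Sequences are shown for the strongest members of 3 classes, by mean fold enrichment over the libraries in which they were open. The classes were chosen by state. They are members open only in KO and CHIR of day 3, members closed only there, and members open in every library. Each is the central 300 bases on the plus strand of mm10, read from the RefSeq copy of that assembly. Capitals mark matches, on either strand, to the short consensus sequences OCT (ATGCAAAT, a site of POU factors), SOX (ACAATGG, sites of the HMG box proteins), TCF/LEF (ATCAAAG, partners of β-catenin), T-box (AGGTGTGA, mesoderm regulators among others), forkhead (TGTTTAC, the FOX proteins), the GATA proteins (with the letters AGATAAG), TEAD (ACATTCC, effectors of Hippo signalling), AP-1 (TGANTCA, the FOS and JUN proteins), KLF/SP (GGGNGTGG, zinc finger proteins), E-box (CAGCTG, basic helix-loop-helix proteins), ETS (CCGGAAGT, the ETS domain proteins), NFY (CCAATCA, a promoter factor), homeobox (CTAATTA, many homeodomain proteins) and to that of CTCF. Matches of different families were counted separately where they overlapped. A match is a run of letters and not a bound site. Regions are named by the protein-coding gene with the nearest start. The first set was open in all 4 KO and CHIR libraries of day 3 and in none of the other 12.
Csmd1 region, chr8:17834954-17835253: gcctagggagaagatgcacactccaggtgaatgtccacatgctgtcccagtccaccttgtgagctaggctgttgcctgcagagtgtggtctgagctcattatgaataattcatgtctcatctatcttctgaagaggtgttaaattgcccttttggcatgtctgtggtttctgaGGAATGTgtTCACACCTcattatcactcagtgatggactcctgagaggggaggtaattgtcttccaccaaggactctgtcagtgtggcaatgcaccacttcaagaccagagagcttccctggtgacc
Ano4 region, chr10:89138887-89139186: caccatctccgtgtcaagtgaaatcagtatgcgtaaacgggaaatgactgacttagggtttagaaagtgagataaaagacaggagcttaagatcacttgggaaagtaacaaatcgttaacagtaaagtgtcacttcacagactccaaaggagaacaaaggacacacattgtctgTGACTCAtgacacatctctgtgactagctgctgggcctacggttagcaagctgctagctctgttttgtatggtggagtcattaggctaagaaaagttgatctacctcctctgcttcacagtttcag
Nrp1 region, chr8:128033498-128033797: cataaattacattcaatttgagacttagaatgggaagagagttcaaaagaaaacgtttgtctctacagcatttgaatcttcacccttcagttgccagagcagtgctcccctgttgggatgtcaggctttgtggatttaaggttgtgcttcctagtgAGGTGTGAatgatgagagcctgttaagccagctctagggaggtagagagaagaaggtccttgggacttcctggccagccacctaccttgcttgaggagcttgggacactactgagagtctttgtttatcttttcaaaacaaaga

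The second set was open in those 12 libraries and in none of the 4 KO and CHIR libraries of day 3.
Igsf11 region, chr16:39303072-39303371: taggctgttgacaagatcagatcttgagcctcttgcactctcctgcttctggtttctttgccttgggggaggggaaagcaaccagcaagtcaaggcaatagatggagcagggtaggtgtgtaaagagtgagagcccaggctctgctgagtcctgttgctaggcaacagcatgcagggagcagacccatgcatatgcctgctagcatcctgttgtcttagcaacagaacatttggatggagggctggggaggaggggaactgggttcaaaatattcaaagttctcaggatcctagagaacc
Dct region, chr14:117500935-117501234: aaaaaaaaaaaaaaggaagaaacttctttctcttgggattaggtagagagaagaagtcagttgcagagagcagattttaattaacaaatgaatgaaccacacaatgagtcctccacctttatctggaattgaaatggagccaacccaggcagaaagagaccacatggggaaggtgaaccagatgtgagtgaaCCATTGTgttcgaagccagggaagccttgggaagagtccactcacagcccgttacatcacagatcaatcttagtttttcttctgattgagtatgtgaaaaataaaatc
Robo1 region, chr16:72072102-72072401: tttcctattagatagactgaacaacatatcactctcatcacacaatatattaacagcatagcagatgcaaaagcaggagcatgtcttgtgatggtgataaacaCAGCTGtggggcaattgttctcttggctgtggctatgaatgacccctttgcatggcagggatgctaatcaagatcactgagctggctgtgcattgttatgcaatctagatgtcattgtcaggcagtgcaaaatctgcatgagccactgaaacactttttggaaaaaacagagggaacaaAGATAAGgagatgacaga

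The third set was open in all 16 libraries.
Nxph1 region, chr6:9889872-9890171: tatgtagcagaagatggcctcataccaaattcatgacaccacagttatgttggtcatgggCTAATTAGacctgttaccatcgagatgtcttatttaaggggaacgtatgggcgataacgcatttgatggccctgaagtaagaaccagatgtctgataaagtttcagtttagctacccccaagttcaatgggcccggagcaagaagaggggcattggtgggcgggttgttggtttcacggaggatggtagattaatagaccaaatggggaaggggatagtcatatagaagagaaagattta
Acvr2a region, chr2:47368361-47368660: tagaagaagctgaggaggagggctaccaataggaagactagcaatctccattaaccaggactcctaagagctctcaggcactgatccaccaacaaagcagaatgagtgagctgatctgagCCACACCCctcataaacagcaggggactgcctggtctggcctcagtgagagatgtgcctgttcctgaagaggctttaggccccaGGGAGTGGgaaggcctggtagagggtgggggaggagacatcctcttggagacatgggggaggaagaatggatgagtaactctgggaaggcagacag
Trps1 region, chr15:51038976-51039275: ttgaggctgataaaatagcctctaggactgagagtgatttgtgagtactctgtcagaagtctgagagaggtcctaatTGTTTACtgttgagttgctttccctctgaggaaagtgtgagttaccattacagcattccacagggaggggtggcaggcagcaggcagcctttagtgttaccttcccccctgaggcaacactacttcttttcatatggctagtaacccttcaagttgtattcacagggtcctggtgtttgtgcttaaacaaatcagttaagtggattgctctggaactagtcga

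Of these 9 windows, 8 held a match. The Csmd1 region held a T-box and a TEAD match 2 bases apart, the Nrp1 region a T-box match and the Ano4 region an AP-1 match, and none of them held the TCF/LEF letters. In the second set the Dct region held a SOX match, the Robo1 region an E-box and a GATA match, and the Igsf11 region none. The homeobox letters in the Nxph1 region matched on both strands in overlapping positions, which were counted as 2 matches.

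The name gene desert holds for distance from starts and not for absence of genes. Of the members, 759 (38.6%) lay inside an annotated gene, 722 of them in a protein-coding gene, and 15 in an exon, so that most of this fraction was intronic sequence of long genes. The other 1205 lay between genes. Among the 45636 other distal regions, over 3 kb and at most 100 kb from a start, 51.9% lay in a gene and 5.06% in an exon. The deserts, defined as the stretches over 100 kb from every start, numbered 1973 and covered 241.3 Mb or 9.11% of the sequenced bases of the chromosomes. They held 8.14 members per Mb, against 32.7 regions per Mb in the rest of the genome, a 4.01-fold lower density. No member was found in 57.6% of the deserts. In the 837 deserts with a member, 410 held a single one, and 101 deserts with 5 or more held 704 members (35.8%). Density varied between chromosomes from 14.3 members per Mb of desert on chromosome 19 and 11.8 on chromosome 11 to 5.47 on chromosome 3 and 2.23 on chromosome X, and no member lay on chromosome Y. The density of the other regions was also low on chromosome X, at 11.8 per Mb.

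The median distance from a member to the nearest region of any class was 21.3 kb, against 6.97 kb for the other distal regions, and 34.4% of members against 62.1% of other distal regions had another region within 10 kb. The states of neighbouring members were not more alike at short range. Adjacent members of a desert were in the same state in 52.9% of libraries when up to 5 kb apart (217 pairs), in 52.9% at 5 to 20 kb (318 pairs), in 52.7% at 20 to 100 kb (460 pairs) and in 51.9% beyond (132 pairs). These are descriptions with no test, since pairs share libraries and members.

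The desert with the most members was the intronic stretch of Rad51b, a gene of DNA repair by recombination, with 16 members over 397.4 kb. It held 8 to 13 open members in each library, most in KO day 3 replicate 1 and fewest in KO day 3 replicate 2 and MUT day 2 replicate 2. The stretch between Cdh26 and Cdh4, a pair of cadherin genes, held 15 members, none of them in a gene and none open in all libraries. The stretch within Pappa and Astn2, near Trim32, and an intron of Camta1 each held 14. Astn2 encodes a protein of neuronal migration and Camta1 a transcription activator of neurons. In the Astn2 stretch 5 to 7 members were open in each of the WT, MUT, day 2 KO and XAV libraries, 9 and 7 in the KO libraries of day 3 and 11 in each CHIR library. In the Camta1 intron 9 and 10 were open in WT day 3, 7 and 8 in MUT day 3, 5 in each KO and each XAV library of day 3 and 8 and 9 with CHIR. The CHIR libraries were thus the highest of all in the Astn2 stretch, and in the Camta1 intron the KO libraries of day 3 lay below the WT and MUT libraries of day 3. On day 2, 5 and 7 members of that intron were open in WT, 5 in each MUT library and 5 and 6 in KO. Setbp1 (12 members in the gene), Spock1 (11), the stretch between Eef2kmt and Rbfox1 (11), Dok5 to Cbln4 (11), Grik3 to Csf3r (11) and Olfr1505 to Tle4 (10) completed the 10 largest. Grik3 and Cbln4 encode a glutamate receptor subunit and a synapse organiser, Rbfox1 a splicing factor of neurons, and Tle4 a co-repressor that binds TCF/LEF factors.

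**Figure D1:**
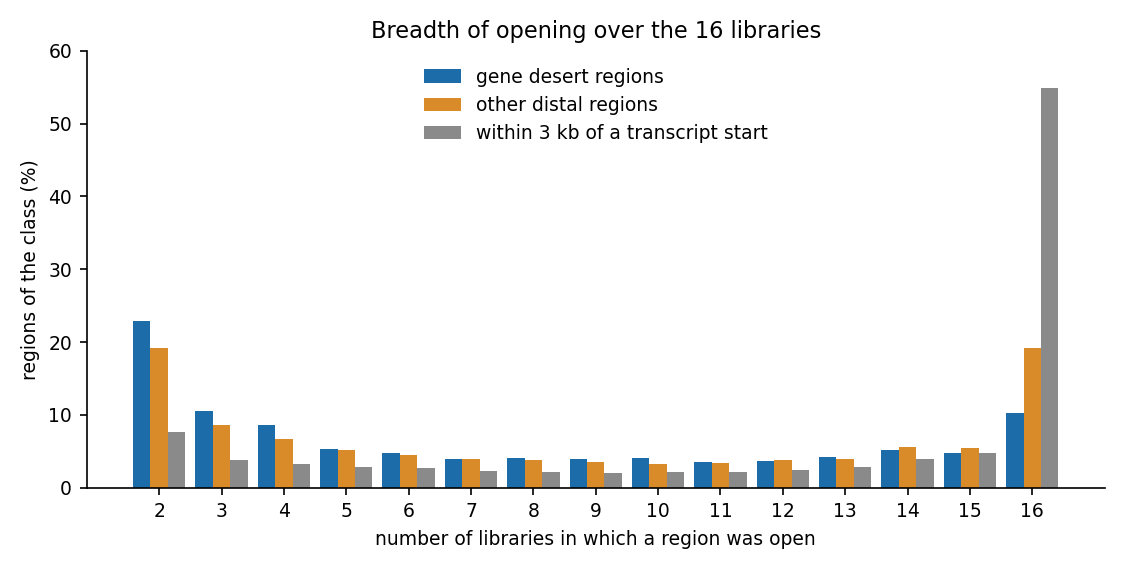
Number of libraries (x axis) in which a region was open, as the percentage of regions of each class (y axis), for gene desert regions (blue, n = 1964), other distal regions (orange, n = 45636) and regions within 3 kb of a start (grey, n = 32990). Desert regions pile up at 2 libraries (22.9%) and have a smaller peak at 16 (10.3%) than the other classes.

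Most members were open in few libraries. The median was 6 of 16 libraries, against 8 for other distal regions and 16 for regions within 3 kb of a start. In all, 656 members (33.4%) were open in only 2 or 3 libraries, against 27.8% of other distal regions, and 202 members (10.3%) were open in all 16, against 19.2%. The share open in all libraries fell with distance in steps, from 21.7% at 3 to 10 kb from a start to 18.4% at 10 to 50 kb, 13.7% at 50 to 100 kb, 10.9% at 100 to 150 kb, 10.0% at 150 to 200 kb and 8.48% beyond. Where members were open, their peaks were not weaker. The median fold enrichment of open members ran from 5.76 to 9.66 over the libraries and that of other distal regions from 5.75 to 8.72, and the former was higher in each of the 16. Many closed members still carried a deposited peak below the rank limit. Between 75.3% (CHIR replicate 1) and 91.6% (KO day 3 replicate 1) of members had some deposited peak in a library, against 84.3% to 93.2% of other distal regions.

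Of the members open throughout, the strongest lay 940.3 kb from Nxph1, whose product binds neurexins, with a fold enrichment of 17.1 to 27.5 and a median of 22.2 over 16 libraries. The next lay 1446 kb from Acvr2a, an activin receptor gene, in the desert that begins at Zeb2, a repressor gene of neural and crest development, with 12.2 to 24.6. A region 148.7 kb from Trps1, which encodes a GATA-type repressor, ranged from 11.2 to 22.7. A region 280 kb from Sox9, a regulator of crest and cartilage cells, ranged from 11.9 to 19.7. KO day 3 replicate 2 gave the lowest value at the last 3 of these 4, and it was also the library with the lowest −log10 p at the rank limit.

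**Figure D2:**
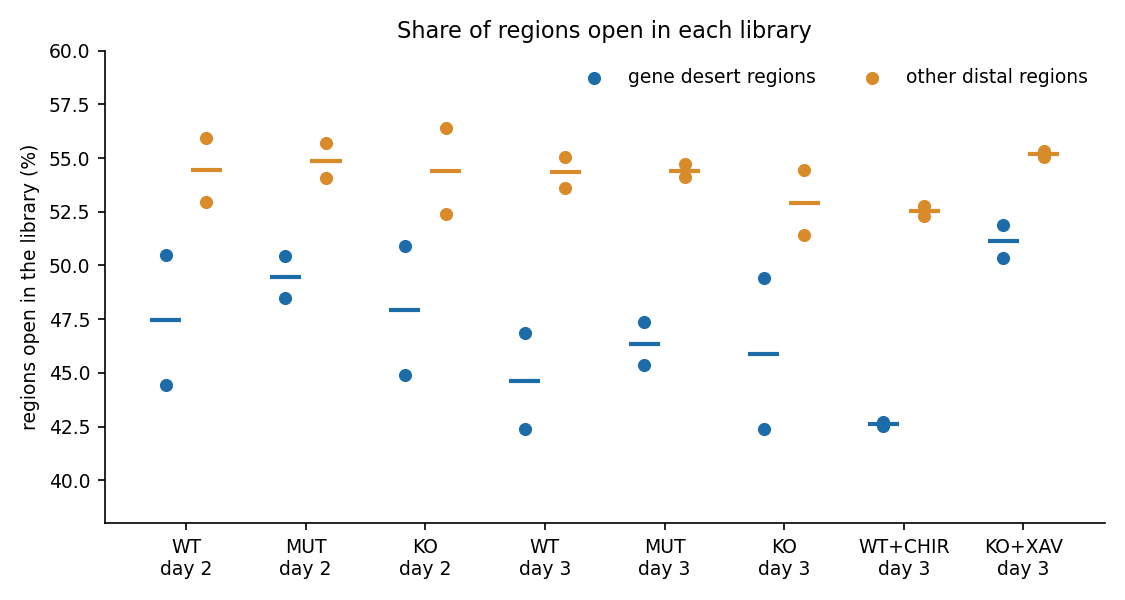
Percentage of gene desert regions (blue) and other distal regions (orange) open in each library (y axis, starting at 38%), by group (x axis). Points are libraries and bars the mean of 2. The blue points lie below the orange points in every group, least far with XAV and farthest with CHIR and in WT day 3.

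Occupancy is the percentage of members open in a library. On day 2 it was 50.5% and 44.5% in WT, 50.5% and 48.5% in MUT and 50.9% and 44.9% in KO. On day 3 it was 46.8% and 42.4% in WT, 45.4% and 47.4% in MUT and 49.4% and 42.4% in KO. CHIR libraries had 42.5% and 42.7%, and XAV libraries 51.9% and 50.4%. The highest library was thus XAV replicate 1 and the lowest were WT and KO replicates 2 of day 3. The fall from day 2 to day 3 was seen in 6 of 6 lines. The change was −3.67 and −2.09 points in WT70 and WT72, −5.09 and −1.12 in CM59 and CM69, and −1.48 and −2.55 in KO1 and KO15. The mean was 45.6% ± 2.84 (SD, n = 6) on day 3 and 48.3% ± 2.92 (SD, n = 6) on day 2, a difference that did not pass an unpaired exact permutation test (two-sided p = 0.134). Paired by cell line, with a replicate block, the difference of −2.66 points gave p = 0.0312 in an exact sign-flip permutation test, which is the smallest that 6 pairs allow. Other distal regions moved less, from a mean of 54.6% to 53.9% (exact permutation p = 0.446). The −log10 p at the rank limit also fell from day 2 to day 3 in 6 of 6 lines. It went from 18.3 to 12.6 in WT70, 13.9 to 9.75 in WT72, 16.2 to 10.9 in CM59 and 13.1 to 11.2 in CM69. In KO1 it went from 21.8 to 12.8 and in KO15 from 9.93 to 6.84. The part of this fall in the change of occupancy was not tested.

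Occupancy was higher with XAV than without it in both KO lines, by 2.44 points in KO1 and 7.99 points in KO15. The −log10 p at the rank limit was also higher with XAV, at 13.4 against 12.8 in KO1 and 13.3 against 6.84 in KO15. With 2 lines no test can reach the threshold. The 4 KO and CHIR libraries of day 3 had a mean of 44.3% ± 3.46 (SD), and the 6 WT, MUT and XAV libraries 47.4% ± 3.43 (SD), a difference of −3.10 points within the spread between libraries (exact permutation p = 0.181). For other distal regions the corresponding difference was −1.91 points (p = 0.019 by the same exact permutation test). In both tests KO1 and KO15 stood on both sides without pairing. The joined groups differ in genotype and treatment, and they were joined with earlier results of these data known. In each of the 8 groups, the library with the higher occupancy was also the one with the higher −log10 p at the rank limit, and the part of that limit in the occupancy was not tested.

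Members were open less often than other distal regions in each of the 16 libraries. The gap between both occupancies ran from −3.46 points in XAV replicate 1 to −11.3 in WT day 3 replicate 2, with a mean of −7.21 ± 2.28 (SD, n = 16; two-sided sign-flip permutation test with 100000 random sign choices, p = 2e-05). Libraries share lines and regions, so that they are not 16 independent draws. The gap was −6.30 on day 2 and −8.27 on day 3 on average (exact permutation p = 0.0931; paired within lines with a replicate block, p = 0.0625), and it widened in 5 of 6 lines, with KO1 the exception. Without WT day 2 replicate 2 the unpaired exact permutation p for the gap between days was 0.0433 and without KO day 3 replicate 1 it was 0.0173. Between KO and CHIR on the one side and WT, MUT and XAV on the other it differed by −1.19 points (exact permutation p = 0.495).

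**Figure D3:**
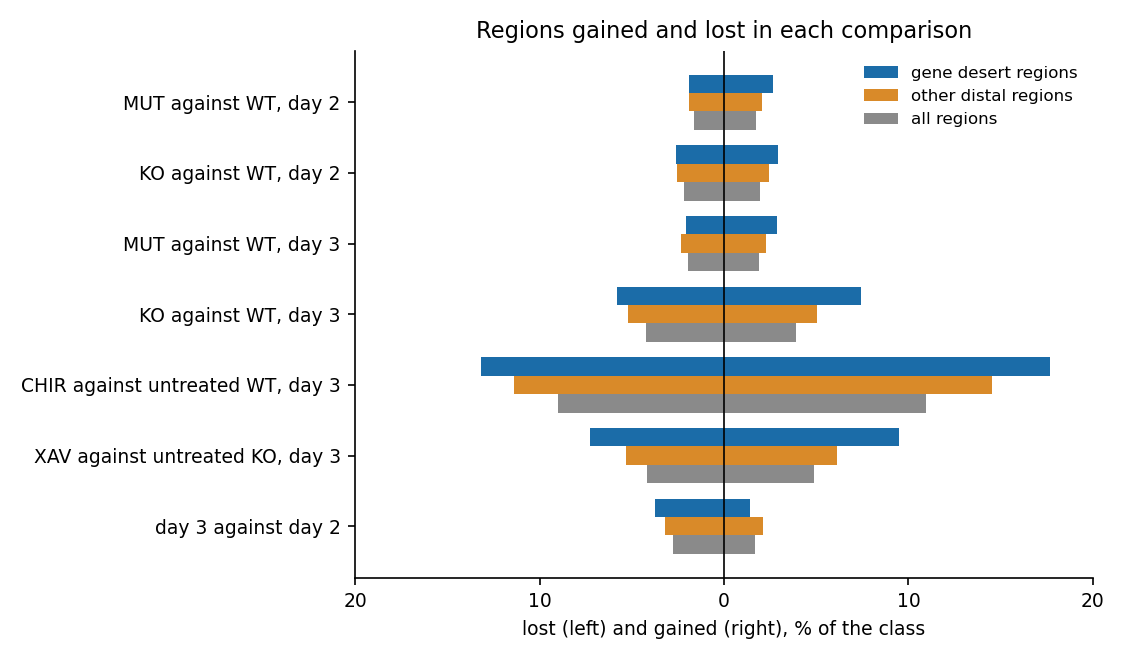
Regions gained (right) and lost (left) in each comparison (y axis), as a percentage (x axis) of gene desert regions (blue), other distal regions (orange) and all regions (grey). Desert bars are longest for CHIR, at 17.7% gained and 13.2% lost, and exceed the bars of all regions except for gains from day 2 to day 3.

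A gained region was one open in 2 of 2 libraries of the group named first and 0 of 2 of the group it was compared with, and a lost region was the reverse. With 2 libraries a group, an exact permutation test cannot go below p = 0.333, so that the counts carry no p. Replicates often disagreed. Of the members open in a group, 24.3% (CHIR) to 40.3% (WT day 3) were open in only 1 of its 2 libraries. For other distal regions this share ran from 23.5% (CHIR) to 33.1% (KO day 3), and it was lower than that of members in each of the 8 groups. Changes between genotypes on day 2 were few. In KO against WT, 57 members (2.90%) were gained and 51 (2.60%) lost, where 1.97% and 2.17% of all regions were. In MUT against WT, 52 members (2.65%) were gained and 37 (1.88%) lost, where 1.73% and 1.61% of all regions were. The same held for MUT against WT on day 3, with 56 members (2.85%) gained and 40 (2.04%) lost against 1.89% and 1.93% of all regions. Next to other distal regions, of which between 1.92% and 2.54% were called per direction in these 3 comparisons, the shares of members lay between 1.88% and 2.90%. In these comparisons few deserts held 2 or more such calls. Here and in the comparisons below, deserts were named for their called members. Differences in their counts between the groups compared are therefore in part given by that choice. In MUT on day 3, an intron of Sdk1, an adhesion gene, gained 2 of 9 members, and introns of Npas3, a neuronal transcription factor gene, and Ptprd lost 2 of 6 and 2 of 8. The Npas3 members were open in neither MUT library of day 3, against 2 and 3 in WT. On day 2, MUT gained 2 of 3 between Kcnv1 and Csmd3 and 2 of 11 between Dok5 and Cbln4, and lost 2 of 3 between Meis2 and Tmco5. KO lost 3 of 6 members between Sox9 and Slc39a11 on day 2, 2 of 5 between Nox3 and Arid1b and 2 of 8 between Bbs9 and Bmper, and no desert gained 2. The closed sides of most of these calls still held a weaker peak. In both libraries of the closed group, 52 of the 56 members gained and all 40 lost in MUT day 3 carried one below the rank limit.

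In KO against WT on day 3, 146 members (7.43%) were gained and 114 (5.80%) lost. The shares were 3.92% and 4.22% over all regions, and 5.03% and 5.21% over other distal regions. Members open in only 1 of 2 libraries, 442 in WT day 3 and 423 in KO day 3, outnumbered these calls. Of changed members 56.2% were gains, against 49.2% of changed other distal regions. Losses outnumbered gains, 264 to 183, when all intervals at or above a −log10 q of 2 were kept, and 249 to 193 without WT day 3 replicate 2. No WT day 3 library held any peak at 24 of the 146 gained members, and no KO day 3 library held one at 2 of the 114 lost members. Both WT day 3 libraries held a weaker peak at 91 of the 146, and both KO day 3 libraries at 94 of the 114. On day 2, 115 of the 146 were open in neither KO library and 10 in both. Of all 867 members open in neither WT library of day 3, 578 were open in neither KO library of day 2. Of the 114 lost members 55 were open in KO1 and KO15 on day 2, against 486 of the 655 members open in both WT libraries of day 3.

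The KO gains were spread thinly, with 22 deserts holding 2 or more. Introns of Lrmda, a melanocyte differentiation gene, held 4 members, of which 1 was open in each WT and MUT library and each KO library of day 2, and all 4 in both KO libraries of day 3. All 4 were also open in both CHIR libraries, and 1 and 2 with XAV. In the stretch from Chd7 to Clvs1, of 5 members, 1 was open in each WT library of day 3, 2 and 1 in MUT day 3, 4 in each KO library of day 3 and each CHIR library and 1 in each XAV library. Chd7 encodes a chromatin remodeller of neural crest development. Between Mroh5 and Adgrb1, 3 of 8 members were open in each WT library of day 3, 5 and 2 in MUT day 3, 6 in each KO library of day 3, 5 and 4 with CHIR and 2 in each XAV library, and 1 or 2 in each library of day 2. These 3 deserts were named for their gains in KO, so that higher counts in KO day 3 than in other groups are in part given by that choice. The other stretches named by the same rule, Slco6d1 to Cntnap5b and Marcks to Rfpl4b, held 2 gained members each, and in the latter no member was open with CHIR. The losses were led by Fbxo15 to Neto1 and the Camta1 intron with 3 members each. Tfap2b to Pkhd1, Timd4 to Sgcd and Sox9 to Slc39a11 held 2 each. In the last of these, 5 of 6 members were open in each of the 4 untreated WT libraries, against 2 and 1 in KO on both days, 3 and 4 in MUT day 3, 4 in each CHIR library and 5 and 3 under XAV, and 3 members were lost in KO against WT on day 2. In MUT day 2, 2 and 4 were open.

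CHIR gave the largest counts, with 347 members (17.7%) gained and 259 (13.2%) lost against untreated WT cells. Over all regions the shares were 11.0% and 9.02%, and over other distal regions 14.5% and 11.4%. KO and CHIR were both compared with the same WT libraries of day 3. At 187 of the 347 gained members neither WT day 3 library had a peak of any rank, and 51 of the 259 lost members had none in either CHIR library. Both libraries of the closed side had a weaker peak at 105 of the 347 and 145 of the 259. In all, 61 deserts gained 2 or more members. Of the 14 members of the Astn2 stretch 7 were gained. In the desert from Shh, the morphogen of the ventral neural tube and a gene with known long-range enhancers, to Rnf32, 5 of 9 were gained. There 1 to 3 members were open in each untreated WT and MUT library and each KO library of day 2, against 5 and 2 in KO day 3, 7 in each CHIR library and 2 and 3 with XAV. From Wwox to Maf, 5 of 8 were gained, with 1 open in each untreated WT library of day 3 and 7 and 6 with CHIR. Olfr1505 to Tle4 and Arhgap15 to Gtdc1 gained 4 each. As these stretches were named for their gains with CHIR, their high counts with CHIR are in part given by that choice. From Bbs9 to Bmper, the latter a gene of a BMP-binding protein, 7 of 8 were open in each CHIR library and 3 in each untreated WT library of day 3, and 2 of these 8 were lost in KO against WT on day 2. Losses were most frequent from Tom1l1 to Kif2b, where 4 to 7 of 8 members were open in the WT and MUT libraries and 0 in both CHIR libraries. Introns of Sgcd, Rad51b, Gpc6 and Rbfox1 lost 3 each. The 3 members in the Rbfox1 intron were open in both untreated WT libraries of day 3, with 1 open in each untreated KO library of day 3. On day 2, 2 of them were open in each WT and each KO library.

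XAV in KO cells gave 186 gained members (9.47%) and 143 lost (7.28%), where 4.89% and 4.16% of all regions and 6.14% and 5.31% of other distal regions were called. At 133 of the 186 gained members both untreated KO libraries of day 3 had a weaker peak, and at 5 neither had any. At 107 of the 143 lost members both XAV libraries had a weaker peak, and at 23 neither had any. XAV against KO and KO against WT share the KO libraries of day 3, so that opposite calls between them are in part given by design. Gains were few per desert. An intron of Ptprd, a receptor phosphatase at synapses, gained 3 of 8 members, with 3 open in each untreated KO library of day 3 and 5 and 6 with XAV, and 7 and 2 in KO day 2. Cdh20 to Rnf152, Abca13 to Vwc2, Timd4 to Sgcd and Kif2b to Car10 gained 2 each. In all of these 4 stretches no member was open with CHIR. Losses were led by Mroh5 to Adgrb1 and Chd7 to Clvs1 with 3 each, followed by introns of Kcnq5, Fstl4 and Hdac9 with 2 each. The Hdac9 introns lie 145.9 to 198.3 kb from Twist1, a regulator of mesoderm and crest. Of the 3 members there, none was open in any WT, MUT, day 2 KO or XAV library, 2 were open in each KO library of day 3 and 3 in each CHIR library.

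Between day 2 and day 3, a member was called when it was open in at least 5 of 6 untreated libraries on one day and at most 1 of 6 on the other. Only 28 members (1.43%) were gained and 73 (3.72%) lost, against 1.70% and 2.78% of all regions and 2.13% and 3.19% of other distal regions. Gains were thus 27.7% of changed members and 40.1% of changed other distal regions. The stretch next to Kcnd3, a potassium channel gene, and the stretch from Efnb1, an ephrin gene, to Pja1 gained 2 each. Between Efnb1 and Pja1 0 or 1 of 4 members was open on day 2 and 2 or 3 on day 3, with 3 in each CHIR library and 1 in each XAV library. Rgs18 to Brinp3, Setbp1, the Plcb1 intron and the stretch next to Luzp2 lost 2 each. Both members between Rgs18 and Brinp3 were open in 5 of 6 libraries of day 2, and neither in any untreated library of day 3.

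A set of 38 members (1.93%) was open in all 4 KO and CHIR libraries of day 3 and in none of the other 12, where 0.725% of all regions and 1.01% of other distal regions were. The reverse held for 27 members (1.37%), against 0.419% of all regions and 0.506% of other distal regions. Of the 38, 2 each lay in introns of Fstl4, of Hdac9 and of Lrmda and in the stretches from Epha7 to Map3k7 and from Grik3 to Csf3r. The 38 lay in 32 deserts on 15 chromosomes and the 27 in 27 deserts on 13. The median distance to a coding start was 206 kb for the former and 245 kb for the latter. Inside a gene lay 17 of the 38 and 7 of the 27. At 4 of the 38 no other library had a peak of any rank, and at 5 all 12 had a weaker one. At 10 of the 27 all 4 KO and CHIR libraries had a weaker peak.

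**Figure D4:**
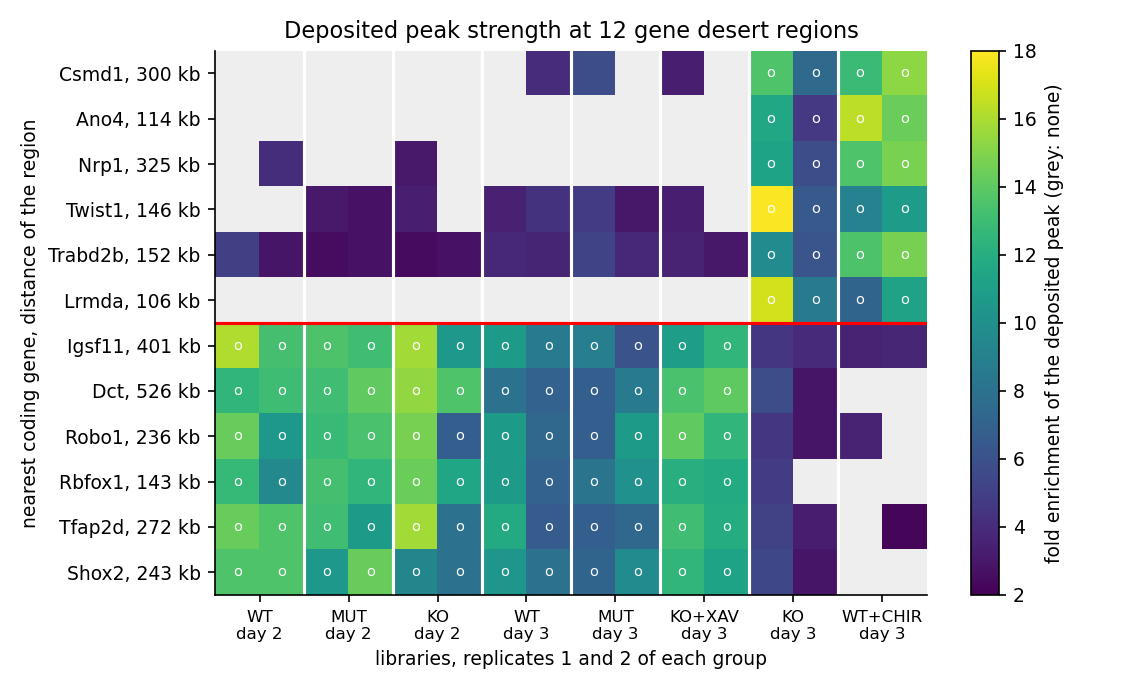
Fold enrichment of the strongest deposited peak (colour, from 2 to 18) in each library (x axis, replicates 1 and 2 of each group) at 12 gene desert regions (y axis, nearest coding gene and distance), the 6 strongest of each direction. Circles mark open states, grey marks no peak of any rank and the red line separates both directions. Weaker peaks below the rank limit had a fold enrichment of 2.45 to 5.78 in the upper rows and 2.24 to 5.8 in the lower rows.

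The strongest member of the first set lay between Csmd1 and Mcph1, 299.5 kb from the start of Csmd1, a complement regulator of brain. Its fold enrichment was 13.6 and 7.55 in KO day 3 and 12.9 and 15.3 with CHIR, and weaker peaks of 3.34 to 5.78 were listed in 3 of the other libraries. The region in an intron of Ano4, a gene of a channel-like membrane protein, had 11.6 and 4.68 in KO and 16.4 and 14.4 with CHIR and no peak of any rank elsewhere. The region 325 kb from Nrp1, a receptor for semaphorins and VEGF, had 11.3 and 5.76 in KO and 13.6 and 14.8 with CHIR, with weaker peaks of 3.12 and 4.08 in 2 other libraries. In all 3 the CHIR libraries lay above KO replicate 2, which had the weakest peaks of the 4. In an Hdac9 intron 146 kb from Twist1, KO replicate 1 was highest at 17.9, followed by CHIR at 9.1 and 10.8 and KO replicate 2 at 6.47, and 8 of the other 12 libraries had weaker peaks of 2.75 to 4.76. In Trabd2b, whose product cleaves Wnt proteins, the values were 9.71 and 6.2 in KO and 13.5 and 14.7 with CHIR, and all 12 other libraries had a weaker peak of 2.45 to 5.29. In Lrmda they were 16.9 and 8.63 in KO and 7.15 and 11.2 with CHIR, with no other peak.

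In the second set, the member 401 kb from Igsf11, an adhesion molecule gene, was strongest, with 6.1 to 16.1 and a median of 11.7 over the 12 open libraries. Its weaker peaks in KO and CHIR of day 3 had 3.57 to 4.51. The region in Gpc6, a glypican gene, 526.4 kb from Dct, had 6.79 to 15.4 with a median of 13.1, and it had weaker peaks of 5.8 and 2.88 in KO and none with CHIR. The region 236 kb from Robo1, the receptor of SLIT guidance cues, had 6.79 to 14.7 with a median of 11.6. In both, KO day 2 replicate 1 was highest and MUT day 3 replicate 1 lowest. Regions in an intron of Rbfox1, 272 kb from Tfap2d and 243 kb from Shox2, a homeobox gene of limb and heart, had 7 to 14.4, 6.67 to 15.8 and 7.13 to 14.3, with medians of 11.6, 11.8 and 10.4. At each of these 3 regions KO day 3 replicate 1 had a weaker peak, of 4.83, 5.15 and 5.47, and CHIR replicate 1 had none.

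Genes nearest to members were counted over 11 lists of developmental and control genes, chosen with earlier results known. Of 21911 protein-coding genes, 739 (3.37%) were nearest to at least 1 member. In the list of axon guidance and cell adhesion genes, 33 of 40 were, with 111 members. Ntm and Opcml, neighbouring genes of neuronal adhesion molecules, had 10 and 9, and Efna5 and Robo1 8 each. The distance rule selects for genes that are long or stand alone, so that the count carries no test. Of the 111, 19 were gained and 16 lost with CHIR, and 2 gained and 8 lost in KO against WT on day 3, where 17.7% and 13.2% of all members were called with CHIR and 7.43% and 5.80% in KO. Of neural crest and surface ectoderm genes, 4 of 16 were nearest to 26 members, namely Sox9 (11), Tfap2c (8), Gata3 (5) and Tfap2b (2), of which 2 were gained and 6 lost in KO on day 3 (of all members 7.43% and 5.80%) and 5 and 5 with CHIR (17.7% and 13.2%). Of mesoderm genes, 7 of 20 were nearest to 20 members, 7 gained and 1 lost with CHIR (17.7% and 13.2% of all members). Of the genes with most members, Meis2 gained 0 of 5, Isl1 2 of 4, Twist1 3 of 3, Eya1 1 of 3 and Bmp2 0 of 3, and the loss was that of the 1 member of Mef2c. In KO against WT on day 3, 3 of the 20 members were gained and 1 lost (7.43% and 5.80% of all members). Of neuroectoderm genes, 7 of 34 were nearest to 18 members, 4 gained and 3 lost with CHIR (17.7% and 13.2% of all members). In KO on day 3, 2 were gained and 0 lost (7.43% and 5.80% of all members). Sox2 was among these genes, with 4 members 378 to 453 kb away, 2 of them open in all libraries. Gata6 was the single endoderm gene of 15, with 4 members, and Sp5, a direct target of Wnt signalling, the single posterior body axis gene of 14, with 2 members. The one 137.5 kb from Sp5 had a fold enrichment of 13.4 and 7.31 in KO day 3 and 9.11 and 8.55 with CHIR and was closed elsewhere, so that it is among the 38. No gene of the primitive streak and nascent mesoderm (20), pluripotency (22), extraembryonic endoderm and trophoblast (14), fibroblast (14) and housekeeping (15) lists was nearest to a member. Marker lists of other cell types therefore had no member to read, and the distance rule leaves out most compact genes.

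Members were poor in GC and in CpG. The median GC content of the central 300 bases was 48.7%, against 51.3% in other distal regions and 59.3% near starts, and CpG dinucleotides averaged 2.85, 4.69 and 16.2 per window. Soft-masked repeats took 15.1% of the bases of members and 13.2% of those of other distal regions. Members open in all 16 libraries had a GC content of 50.8%, 5.07 CpG per window and 10.1% repeats.

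Shares of windows with motif letters are given as a description with no test. The octamer, bound by OCT4 and other POU factors, was present in 5.75% of members, 3.27% of other distal regions, and 2.75% of all regions. CTCF letters were present in 3.36%, 6.86% and 5.45%. TCF/LEF letters were present in 8.50%, 6.19% and 5.00% and SOX letters in 6.36%, 4.88% and 4.11%. Within windows of 50 to 55% GC, 6.74% of 564 members and 2.93% of 16189 other distal regions held the octamer, and CTCF letters were in 2.13% and 6.80%. At a GC content under 45%, the octamer shares were 6.36% and 6.42%, so that the difference was not seen at every GC content. Among members open in all 16 libraries, 21 of 202 (10.4%) held the octamer and 14 (6.93%) CTCF letters, whereas the other distal regions open in all 16 held them in 3.16% and 12.7%. No T-box letters were found in these 202, where only 2.60% of all members and 1.75% of the other distal regions open in all 16 held them.

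**Figure D5:**
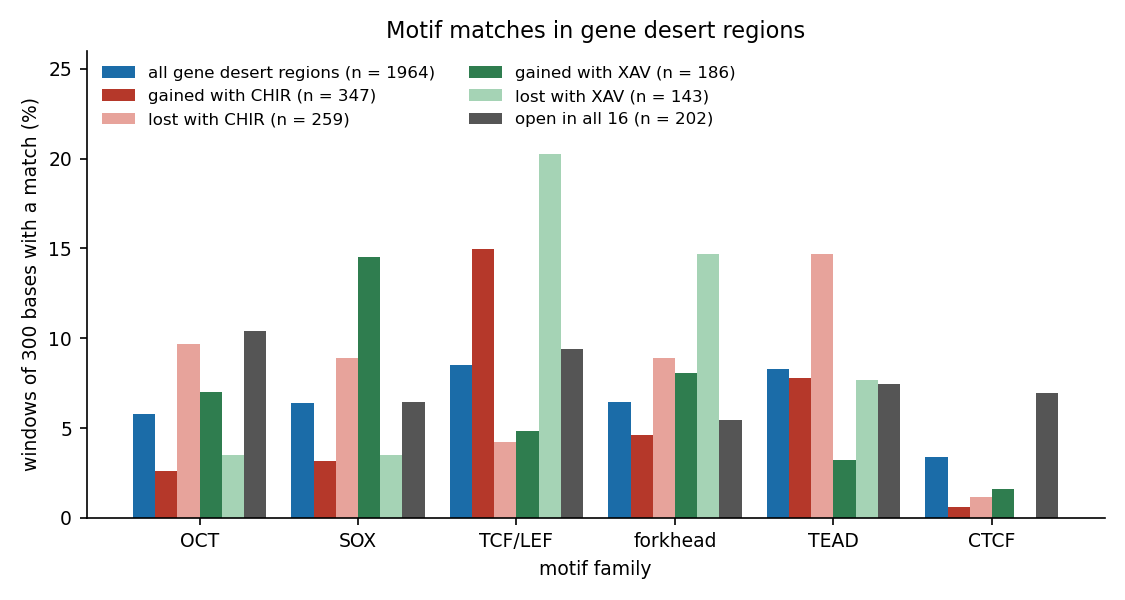
Percentage of windows of 300 bases (y axis) with a match for 6 motif families (x axis), in all gene desert regions, in those gained or lost with CHIR or XAV and in those open in all 16 libraries. TCF/LEF letters peak at 20.3% in members lost with XAV and 15.0% in members gained with CHIR, and CTCF letters at 6.93% in those open throughout.

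The letters differed between the directions of change. TCF/LEF factors are the DNA-binding partners of β-catenin in Wnt signalling. Their letters were in 15.0% of members gained with CHIR and 4.25% of those lost, as in other distal regions (14.9% and 3.44%). For XAV in KO cells the order was the reverse, 4.84% in gained and 20.3% in lost members, against 3.78% and 10.2% of other distal regions. In KO against WT on day 3 they were in 19 of 146 gained and 7 of 114 lost members. Forkhead letters were in 11.0% of members gained and 7.02% of those lost in that comparison, against 10.1% and 4.00% of other distal regions. SOX letters were in 14.5% of members gained with XAV and 3.50% of those lost, against 8.24% and 4.50% of other distal regions. With CHIR they were in 3.17% of gained and 8.88% of lost members, against 3.32% and 7.99% of other distal regions. TEAD and octamer letters were in 14.7% and 9.65% of members lost with CHIR and 7.78% and 2.59% of those gained. In the 38 members open only in KO and CHIR, 7 held TCF/LEF and 4 T-box letters, and in the 27 of the reverse set 1 and 2. Of the 460 other distal regions open only in KO and CHIR, 69 and 56 held them, and of the 231 of the reverse set 6 and 6. AP-1 letters were in 17 of the 56 members gained in MUT on day 3 (30.4%) and 3 of the 40 lost, next to 26.7% and 12.2% of the other distal regions called. They were in 9 of the 28 members gained from day 2 to day 3 (32.1%), and in 370 of the 974 other distal regions gained. These are shares of small sets with no test, and the calls of these comparisons share libraries.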

How the data were processed

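The authors ran the ENCODE ATAC-seq pipeline on the omni-ATAC-seq reads (mm10), with alignment, deduplication and peak calling, and deposited 1 peak list per library. Aligner and peak caller versions: not given in the sources used here. For every peak the deposited columns hold a fold enrichment, which is a ratio over local background, and the authors' −log10 p-value and −log10 q-value. The −log10 p reached down to 2. The submitters' processing notes name DiffBind 3.0.15, HOMER 2 and deepTools 3.4.3. A pair of further lists holds the authors' own comparison of KO with WT on day 3. They were not used, and overlaps with them were not counted.

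Intervals deposited more than once in a list were counted once, at their highest −log10 p. Kept intervals, consensus regions and open states were made as given in the report, and the folds are those of the strongest overlapping peak. Positions were read against GENCODE M21, which shares its coordinates with mm10, and sequence from the RefSeq copy of that assembly. The members, gene lists and motifs were chosen with earlier results of these data known. A state is a rank within a library, since the −log10 p at rank 50000 differed between libraries. Depth is unknown, and no counting interval is given.

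Occupancies were compared with two-sided exact permutation tests (4 against 6 and 6 against 6 libraries), and p-values measure the spread between these libraries, some of which share a line. Day 2 and day 3 were paired by the cell line that the labels name. Over members, the deviations of a line from its group mean did not correlate between days (r = 0.002, −0.006 and −0.009 for WT, MUT and KO), so that the lines do not share a pattern of single members. Replicate numbers pair no genotypes. The report names the 10 deserts with most members, up to 5 deserts with most gained and lost members per comparison (2 or more; ties by position), and the members strongest in 3 classes. Other settings were 30000 intervals, all intervals with a −log10 q of at least 2, an interval that covers at least 50% of a region, 200 kb, protein-coding starts, and leaving out each library. Steps were tested on simulated data. Python 3.11.15, numpy 2.4.6, pandas 2.3.3, pysam 0.24.0 and matplotlib 3.10.9 were used.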

Additional observations from a re-analysis of the deposited data

Results flagged for a closer look

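Among the 4 KO and CHIR libraries of day 3, KO replicate 1 stood far from the rest in the share of gene desert regions that were open, at 49.44%, while the other 3 lay between 42.4% and 42.7%. The distance to the nearest of the others took 0.950 of the whole range of the set, above the limit of 0.829 for 4 values. KO1, its cell line, was also the higher of the KO lines on day 2 (50.9% against 44.9%) and with XAV (51.9% against 50.4%). Its −log10 p at rank 50000 was 12.8, against 6.84, 10.9 and 11.1 in the other 3, and the part of that difference was not tested. In 8 sets of 4 or 6 libraries examined, this was the single value past its limit, and chance passes it in about 1 of 20 sets.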

How the results depend on the processing

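Each of the 5 comparisons of occupancy or gap kept its direction under every alternative run. The fall in occupancy from day 2 to day 3 passed the threshold with 30000 intervals per library (−6.62 points, exact permutation p = 0.0173) and with the replicate block by cell line (−2.66 points, exact sign-flip permutation p = 0.0312), and the change of the gap did so with 30000 intervals (−5.02 points, exact permutation p = 0.00866). The replicate block changed no other call. With all 65536 sign choices enumerated, an alternative chosen after seeing the data, the gap over all libraries gave an exact permutation p of 3.05e-05, the smallest that 16 libraries allow, against 2e-05 from random choices. The number of gene desert regions was 934 with 30000 intervals, 7303 with every interval of −log10 q of at least 2, 342 over 200 kb from a start and 9758 with protein-coding starts alone. Counts moved with it, and are given as gained and lost for KO and MUT on day 3, KO and MUT on day 2, CHIR, XAV and day 3 against day 2, in this order. With 30000 intervals they were 80 and 57, 23 and 13, 22 and 28, 22 (lost within 1.5 times), 182 and 131, 100.0 and 74, and 14 and 46. With the −log10 q limit they were 183 and 264, 166 and 108, 109 and 113, 142 and 159, 855 and 693, 702 gained (lost within 1.5 times), and 48 and 320. Beyond 200 kb they were 21 and 21, 7 and 12, 12 and 7, 7 and 10.0, 50.0 and 49, 33 and 19, and 4 and 14. With protein-coding starts they were 629 and 544, 226 and 218, 271 and 241, 236 and 179, 1670.0 and 1304, 781 and 632, and 196 and 307. These sets differ in size by construction.

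Leaving out 1 library at a time, the difference in occupancy between KO or CHIR and the rest ran from −4.83 to −2.20 points and that in the gap from −2.35 to −0.42, the fall in occupancy between days from −3.43 to −2.01 and that of the gap from −2.63 to −1.37, and the gap over all libraries from −7.46 to −6.94. The change of the gap between days passed the threshold without WT day 2 replicate 2 (−2.42, exact permutation p = 0.0433) and without KO day 3 replicate 1 (−2.63, exact permutation p = 0.0173). A group left with 1 library was called on that library alone, and the days needed 1 open library fewer. Counts could therefore only rise. They ran from 193 to 284 gained and 155 to 249 lost for KO on day 3, 106 to 145 and 78 to 128 for MUT on day 3, 88 to 130 and 81 to 128 for KO on day 2, 83 to 136 and 78 to 106 for MUT on day 2, 376 to 388 and 299 to 447 for CHIR, 247 to 292 and 169 to 266 for XAV, and 31 to 48 and 80 to 105 for day 3 against day 2. For MUT on both days and KO on day 2 every library moved the count by over 1.5 times. Elsewhere the gained count for KO on day 3 did so without KO replicate 2 (284), the lost count without WT replicate 1 (185), WT replicate 2 (249) or KO replicate 1 (177), the count lost with CHIR without WT replicate 2 (447), those gained with XAV without KO replicate 1 (289) or XAV replicate 2 (292), those lost with XAV without KO replicate 2 (266), and those gained on day 3 without WT day 3 replicate 1 (43), KO day 2 replicate 1 (44) or KO day 3 replicate 2 (48). Read depth is unknown, so that its part in these values was not tested.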
